A study of Mus musculus with 6 samples.

Results

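The genes described are 54 mouse genes of the cell division cycle, chosen by symbol: 33 that act in mitosis, 17 that act in DNA replication or supply its nucleotides, and 4 regulators of entry into S phase. A gene was read through the array probe sets annotated to its symbol alone, and by this rule 53 of the 54 were on the array, among 18194 genes in all. Ccnb1, a B-type cyclin, had no such probe set. The 53 genes had 120 probe sets, with several probe sets for 38 genes and a single one for 15.

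Colon and liver RNA of male C57BL6/J mice, 7 weeks old, had been hybridised to Affymetrix mouse genome expression arrays. DSSPAR mice ate a basal diet with 2% parsley throughout and, after 7 days of plain water, were given drinking water with 1.5% (w/v) dextran sodium sulphate, a polymer toxic to the lining of the colon that produces colitis, for 9 days by the treatment protocol. DSS mice ate the basal diet and, after the same 7 days, drank the polymer for 10 days by the treatment protocol. CON mice ate the basal diet and drank plain water. The diet and 1 day of exposure therefore differ together between DSSPAR and DSS, although the growth protocol gives 9 days in wording attached to DSSPAR alone. The labels name no mutation in any group. Each array held a pool of RNA from 7 mice, 15 µg, and there was 1 array per group and tissue. Each comparison below sets 2 pools side by side without replicates, so no p-value is given. The spread that could be measured was that between different probe sets of 1 gene: the difference of their log2 ratios had a robust SD of 0.41 for DSS against CON in colon and 0.56 in liver.

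The values are MAS5 intensities on a linear scale, with a floor at the median of all values of a tissue, 25.1 in colon and 96.6 in liver. A gene counts as measured in a comparison when it was brighter than the floor in 1 or both of the arrays compared. A value under the floor was raised to it before a ratio was taken, so a fold against such an array is given as "at least". The tissues had been scaled apart, and levels are compared neither between tissues nor between genes. In the colon arrays all 8 epithelium markers lay above the floor in every array. Of 5 hepatocyte markers 3 (Ttr, Tat and Cps1) lay above it in every colon array, and Alb and Apoa1 under it, with sums of 1363 in DSSPAR, 629 in DSS and 1764 in CON. In the liver arrays all 5 hepatocyte markers lay above the floor. The ribosomal RNA control probe sets of the colon arrays read 254 in DSSPAR, 1154 in DSS and 2384 in CON, and those of the liver arrays 33528, 46497 and 26922. The ratio of 3′ to 5′ control probe sets, a measure of RNA quality, was 0.753 in DSSPAR, 0.696 in DSS and 0.850 in CON for Gapdh in colon, and 1.69, 1.30 and 1.61 for actin. In liver it was 1.07 in DSSPAR, 1.54 in DSS and 1.21 in CON for Gapdh, and 2.63, 3.53 and 3.55 for actin. Of the colon arrays, DSS alone carried exocrine pancreas markers above the floor, 6 of 6 with a summed intensity of 2219, against 38.2 in DSSPAR and 36.9 in CON, while each liver array had 2 of 6 above it. The part of these differences in the results was not tested.

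A cell that enters division first assembles the Mcm2 to Mcm7 helicase on its origins with the help of Cdc6. Cdc45 and the GINS complex then switch the helicase on, Pcna clamps the polymerases to DNA, and ribonucleotide reductase (Rrm1 and Rrm2), Tyms, Tk1 and Dut keep the nucleotides supplied. Mitosis is driven by Cdk1 with its A- and B-type cyclins and by the Plk1 and Aurora kinases. Kinetochores and a kinesin-built spindle then move the chromosomes, and the APC/C, a ubiquitin ligase activated by Cdc20, ends the phase by destroying cyclins. Transcription of the earlier set is mostly timed by E2F factors. Many later genes are timed through the cell cycle genes homology region (CHR), an element read by the DREAM and MuvB-FOXM1 complexes, together with CCAAT boxes bound by NF-Y. In the colon most division occurs in the crypts, and in the adult liver few cells divide.

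Because the replication and mitosis genes are described apart below, 6 promoters are shown from both sets: Mcm5 and Mcm6, helicase genes with E2F motifs and large ratios in liver, Cdk1, Ccnb2 and Plk1, with CHR motifs, and Birc5, which had the largest ratio in the DSS colon. Each run covers 250 bases before to 50 after the start of the gene, 5′ to 3′ on the strand of the gene, from RefSeq on GRCm38.p6. The positions are chr8:75109259-75109558 on the plus strand for Mcm5, chr1:128359656-128359955 on the minus strand for Mcm6, chr10:69352863-69353162 on the minus strand for Cdk1, chr9:70421505-70421804 on the minus strand for Ccnb2, chr7:122159185-122159484 on the plus strand for Plk1 and chr11:117848987-117849286 on the plus strand for Birc5. Capitals mark matches, on either strand, to the E2F motif (TTTCGCGC, TTTGGCGC, TTTCCCGC or TTTGCCGC), to the CHR motif (TTTGAA or TTCGAA) or to the NF-Y motif (CCAAT).
Mcm5: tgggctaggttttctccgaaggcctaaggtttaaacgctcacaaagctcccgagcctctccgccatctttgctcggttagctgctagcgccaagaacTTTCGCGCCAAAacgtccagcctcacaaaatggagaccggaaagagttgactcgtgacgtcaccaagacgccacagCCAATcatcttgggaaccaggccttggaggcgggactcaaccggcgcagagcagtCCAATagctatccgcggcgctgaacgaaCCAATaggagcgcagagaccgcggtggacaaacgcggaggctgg
Mcm6: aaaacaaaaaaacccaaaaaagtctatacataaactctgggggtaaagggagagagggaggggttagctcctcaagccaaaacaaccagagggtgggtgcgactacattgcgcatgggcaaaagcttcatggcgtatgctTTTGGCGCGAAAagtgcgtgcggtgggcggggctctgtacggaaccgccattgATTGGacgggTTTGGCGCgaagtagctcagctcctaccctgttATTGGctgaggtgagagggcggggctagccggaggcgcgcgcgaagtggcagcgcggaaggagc
Cdk1: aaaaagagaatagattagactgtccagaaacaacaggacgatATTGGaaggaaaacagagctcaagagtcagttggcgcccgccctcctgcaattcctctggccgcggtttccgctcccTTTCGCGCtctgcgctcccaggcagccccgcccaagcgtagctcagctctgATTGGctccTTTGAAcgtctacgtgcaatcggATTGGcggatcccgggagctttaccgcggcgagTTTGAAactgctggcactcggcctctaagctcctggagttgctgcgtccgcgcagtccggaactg
Ccnb2: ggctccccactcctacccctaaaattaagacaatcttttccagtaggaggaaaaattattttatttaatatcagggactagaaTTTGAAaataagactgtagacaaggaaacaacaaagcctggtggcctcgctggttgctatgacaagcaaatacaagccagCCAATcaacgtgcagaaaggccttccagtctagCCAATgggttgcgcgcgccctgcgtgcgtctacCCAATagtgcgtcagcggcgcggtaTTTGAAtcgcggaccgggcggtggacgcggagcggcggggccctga
Plk1: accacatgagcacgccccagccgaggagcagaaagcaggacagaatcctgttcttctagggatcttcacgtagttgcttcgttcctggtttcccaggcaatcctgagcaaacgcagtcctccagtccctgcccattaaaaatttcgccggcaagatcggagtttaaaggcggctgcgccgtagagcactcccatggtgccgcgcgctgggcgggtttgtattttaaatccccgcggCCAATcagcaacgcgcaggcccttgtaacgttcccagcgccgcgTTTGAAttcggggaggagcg
Birc5: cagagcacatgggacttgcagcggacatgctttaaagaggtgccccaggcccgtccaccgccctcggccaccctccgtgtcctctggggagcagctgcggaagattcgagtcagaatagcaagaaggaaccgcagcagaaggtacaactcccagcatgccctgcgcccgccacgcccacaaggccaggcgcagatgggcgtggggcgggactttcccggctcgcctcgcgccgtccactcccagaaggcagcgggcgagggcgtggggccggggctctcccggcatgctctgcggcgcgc
The capitals of Mcm5 hold 2 E2F matches that overlap on opposite strands, followed by 3 NF-Y matches. Mcm6 has the same kind of overlapping pair and a further E2F match nearer the start. Cdk1 carries 1 E2F match as well as 2 CHR matches, Ccnb2 has 2 CHR matches, and Plk1 has 1 CHR match 30 bases past its start and 1 NF-Y match. Birc5 holds none of the letters searched for in this window.

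The table of promoters held 44 of the 54 genes, with 48 promoters. Mcm4, Gins1, Ccnd1, Ccne2, Ccna2, Foxm1, Aurkb, Kif20a, Tpx2 and Stmn1 were not in it. A CHR match was present in 20 of 27 mitosis genes (74.1%) and 3 of 15 replication genes (20%), beside 21.7% of all 27025 genes with a promoter. An E2F match was present in 1 of 27 mitosis genes (3.70%), Cdk1, and in 6 of 15 replication genes (40%), Mcm3, Mcm5, Mcm6, Mcm7, Cdc6 and Uhrf1, beside 2.60% of all genes. NF-Y matches were found in 21 of 27 mitosis genes and 11 of 15 replication genes, beside 41.1% of all genes, so this motif did not separate the sets. Within 50 bases of the start, 21 of 29 mitosis promoters (72.4%) held a CHR match, against 1 of 17 replication promoters (5.88%) and 5.31% of all 32851 promoters. Further genes of both phases, from a longer list, had CHR matches in 33 of 43 mitosis genes and 8 of 37 replication genes, and E2F matches in 6 of 43 and 13 of 37. A match is a run of letters and not a shown binding site.

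**Figure D1:**
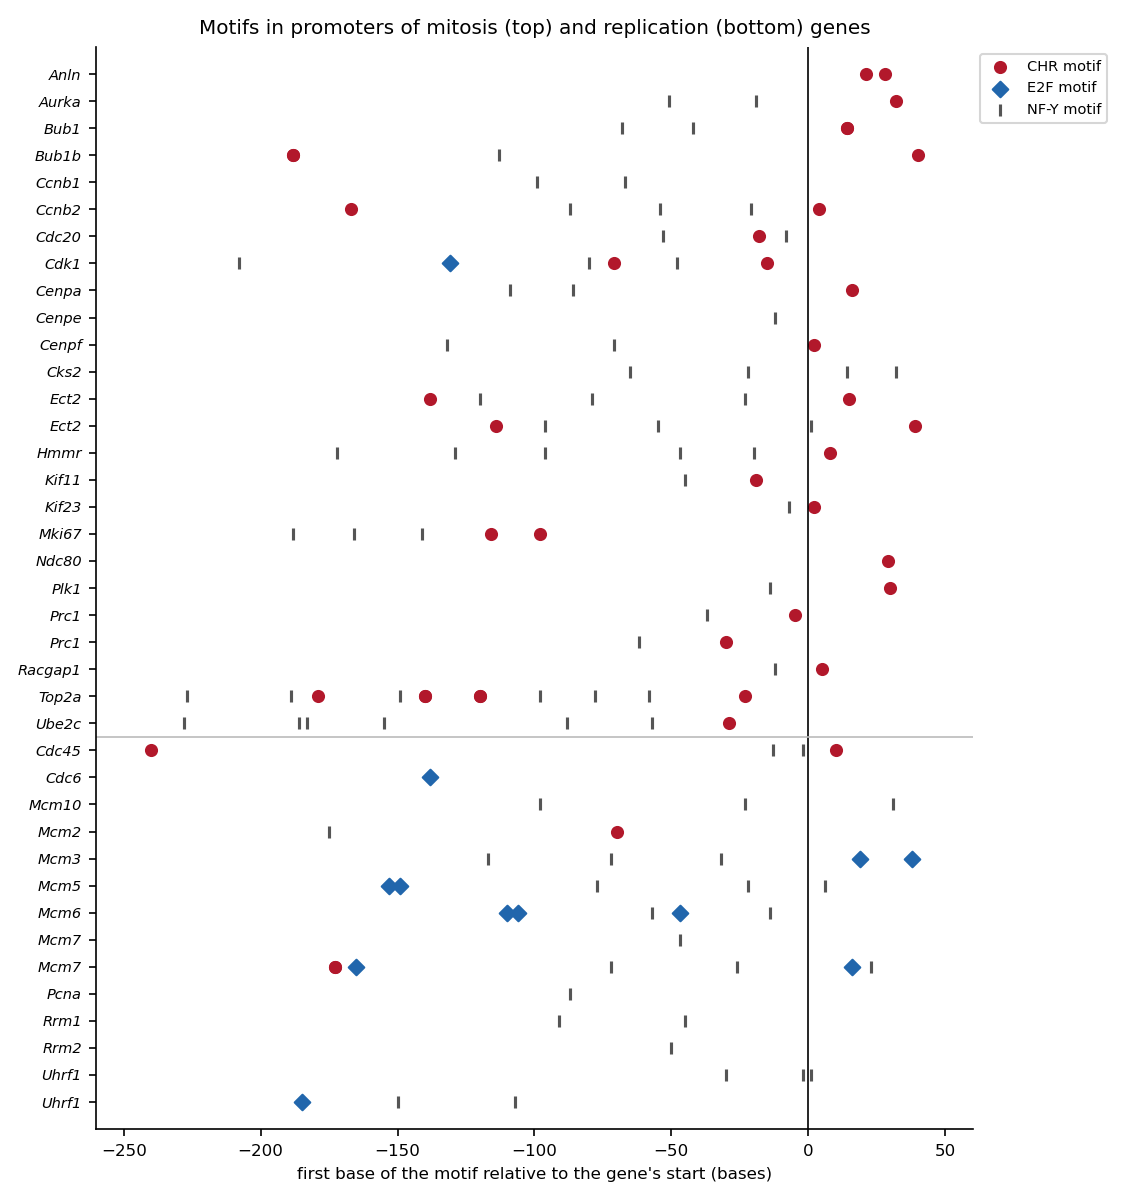
Each row is 1 promoter of a mitosis gene (top) or replication gene (bottom) that held at least 1 match, and each mark is the first base of a match relative to the gene's start, in bases. Circles (CHR) gather near the start in the mitosis rows, with a median position of -16.5, and diamonds (E2F) lie in the replication rows except for 1 in Cdk1.

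In colon, genes of mitosis were higher in DSS than in CON almost throughout, and most by more than 2-fold. Of the 32 mitosis genes on the array 24 were at least 2-fold higher and 0 were lower by as much, with a median log2 ratio of 1.27. Over all 11952 genes measured the shares were 5.18% higher and 1.97% lower by this threshold, with a median of 0.04. Replication genes were higher too, but by less: 6 of 17 passed 2-fold and the median was 0.84. Over all 53 genes 31 were at least 2-fold higher, 51 lay above 0, and the median was 1.09. The 2 below 0 were Foxm1 and Tyms. In pooled tissue RNA, a larger share of dividing cells and more of these RNAs per cell cannot be told apart.

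Among the drivers of mitosis, Birc5, the survivin subunit of the chromosomal passenger complex, read 403 in DSSPAR, 522 in DSS and 96.9 in CON. This was the largest ratio of the set for DSS against CON, 5.39-fold. Cdk1, the kinase of mitotic entry, read 394 in DSSPAR, 472 in DSS and 143 in CON. Plk1, a kinase of spindle assembly and mitotic exit, read 91.4 in DSSPAR, 150 in DSS and 48.3 in CON. Both were highest in DSS and lowest in CON, 3.29-fold and 3.10-fold apart. Ccnb2 and Ccna2, which encode cyclins of Cdk1, were 2.71-fold and 2.57-fold higher in DSS than in CON. Aurka, the spindle pole kinase, was 2.85-fold higher, and Aurkb, the kinase of the passenger complex, 2.41-fold. Melk, a kinase expressed in dividing and progenitor cells, was 2.41-fold higher. Of the 10 driver genes on the array 8 thus passed 2-fold. Those that did not were Cks2, a small Cdk-binding subunit, and Foxm1, a transcription factor of mitotic genes. Cks2 read 1321 in DSSPAR, 1114 in DSS and 795.5 in CON. Foxm1 read 65.1 in DSSPAR, 77.6 in DSS and 87.4 in CON and was thus lowest in DSSPAR and highest in CON, against the order of most other mitosis genes. Its other probe sets read near or under the floor.

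The machinery that these kinases act on mostly had the same order of arrays. Mki67, the antigen used to score dividing cells, read 660 in DSSPAR, 813 in DSS and 380 in CON. Top2a, which untangles sister chromosomes, read 448 in DSSPAR, 672 in DSS and 269 in CON. Both were highest in DSS, 2.14-fold and 2.50-fold above CON. Of the 4 checkpoint and APC/C genes, Cdc20, its activator, was 2.82-fold higher in DSS than in CON, Ube2c, its ubiquitin-conjugating enzyme, 2.84-fold and the checkpoint kinase gene Bub1 2.42-fold, while Bub1b was 1.87-fold higher. Of the 5 kinetochore genes 4 passed 2-fold: Ndc80 (2.95-fold) and Nuf2 (2.16-fold), subunits of the complex that grips microtubules, Cenpa (2.64-fold), the histone of centromeres, and Cenpe (2.25-fold), a kinetochore motor. Of the 7 spindle genes 4 passed: the kinesin gene Kif20a (2.87-fold), Hmmr (2.42-fold), Prc1 (2.32-fold), which bundles midzone microtubules, and Tpx2 (2.13-fold), which activates Aurka. The others were Nusap1 (1.99-fold), just under the threshold, Kif11 (1.50-fold), the motor that separates the poles, and Stmn1 (1.30-fold), which destabilises microtubules. Of the 4 cytokinesis genes Anln (2.42-fold), Kif23 (2.07-fold) and Ect2 (2.01-fold) passed and Racgap1 (1.66-fold) did not.

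**Figure D2:**
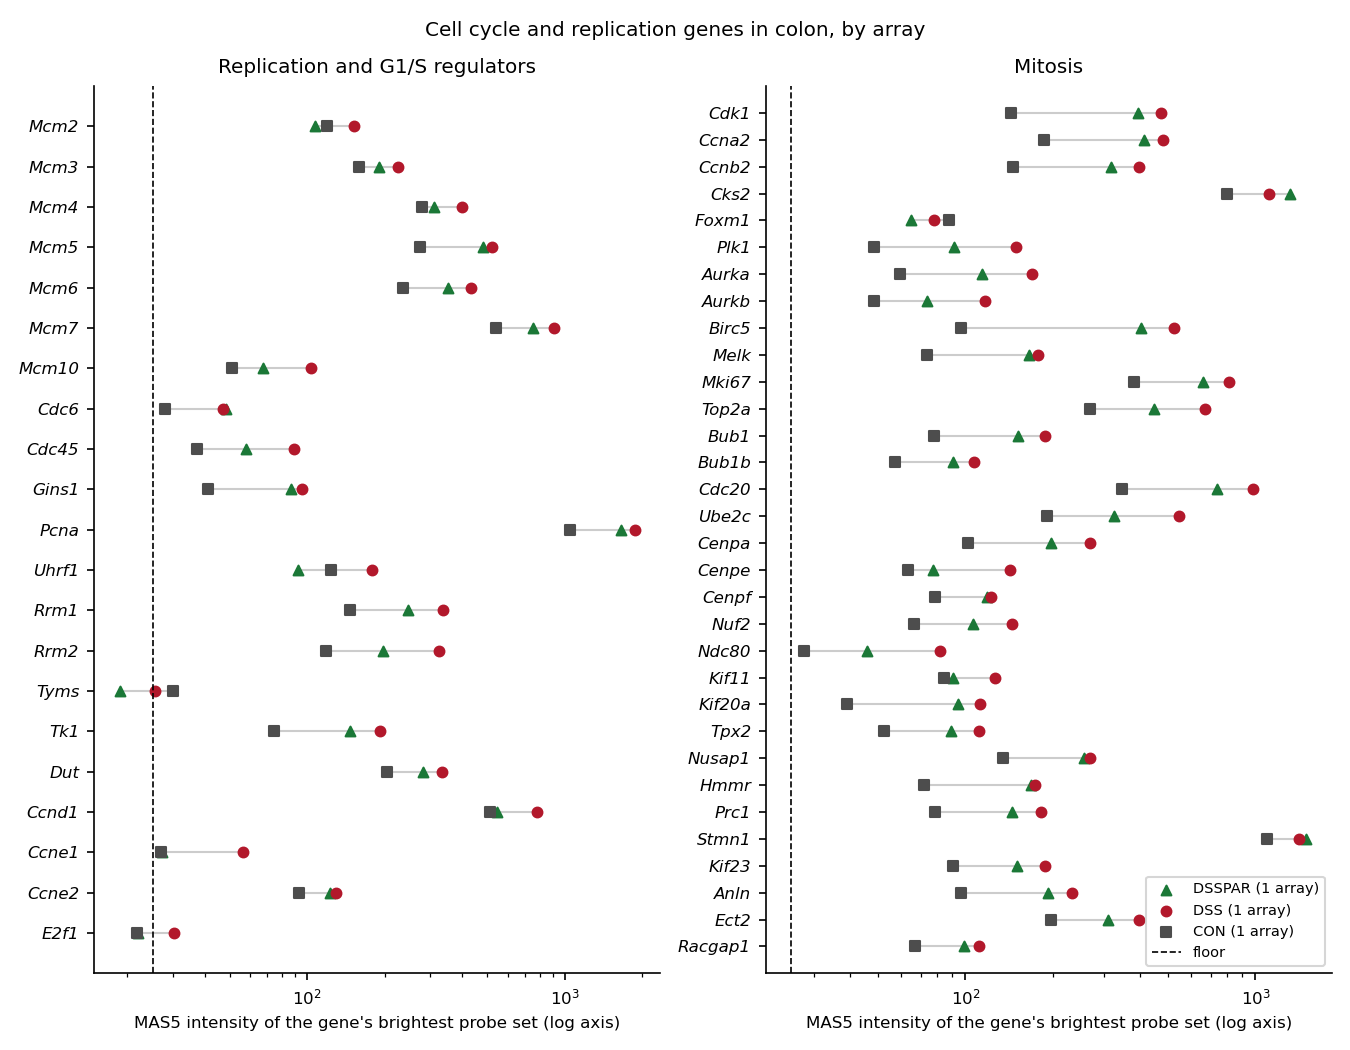
MAS5 intensity (log axis) of each gene's brightest probe set on the 3 colon arrays, replication and G1/S genes on the left and mitosis genes on the right, with the floor dashed. DSS lies to the right of CON for all genes but Foxm1 and Tyms, and DSSPAR mostly lies between them.

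The replication genes past 2-fold were mainly those of nucleotide supply and origin firing. Rrm2, the regulated subunit of ribonucleotide reductase, read 198 in DSSPAR, 326 in DSS and 118 in CON. Tk1, the thymidine salvage kinase of S phase, read 146 in DSSPAR, 191 in DSS and 74.0 in CON. They were 2.75-fold and 2.59-fold higher in DSS than in CON, and Rrm1, the other reductase subunit, was 2.29-fold higher. Cdc45 (2.39-fold) and Gins1 (2.31-fold), which activate the helicase, and Mcm10 (2.03-fold), which acts with them, also passed. A weaker probe set of Cdc45 pointed the other way, at a log2 ratio of -0.47 for DSS against CON, with DSS under the floor.

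The helicase core did not reach 2-fold. Mcm2 to Mcm7 had log2 ratios of 0.35 (Mcm2), 0.51 (Mcm3), 0.51 (Mcm4), 0.94 (Mcm5), 0.89 (Mcm6) and 0.75 (Mcm7) for DSS against CON, and 0 of 6 passed. Mcm5 read 481 in DSSPAR, 523 in DSS and 273 in CON. Pcna read 1654 in DSSPAR, 1866 in DSS and 1045 in CON, 1.79-fold higher in DSS than in CON. All these genes were higher in DSS than in CON by less than most mitosis genes. Cdc6 (1.68-fold), Dut (1.64-fold) and Uhrf1 (1.45-fold), which brings DNA methylation to new strands, were likewise under 2-fold. The probe sets of Tyms alone lay near or under the floor, 18.7 in DSSPAR, 25.6 in DSS and 30.1 in CON for the brightest.

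The difference between the sets, mitosis minus replication, was 0.43 log2 units for DSS against CON. It was 0.41 between further mitosis genes (23 of 48 at least 2-fold higher, median 0.98) and further replication genes (6 of 44, median 0.57) that are not among the 54. This difference depended on the floor. With the floor at the 75th percentile, 104 in colon, it was -0.0084, as 21 of 32 mitosis genes and 6 of 17 replication genes lay at or under that level in CON, where their ratios are cut short. Without any floor it was again 0.43.

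Different probe sets of a gene mostly lay on the same side. Several probe sets lay above the floor for 31 cell cycle genes, of which 29 (93.5%) had them all on 1 side of 0 for DSS against CON, beside 57.1% of all such genes. The exceptions were Cdc45 and Mcm5. Averaging all probe sets of each gene left 20 of 46 measured genes at least 2-fold higher, in place of 31 of 53. The share over all genes was then 4.51%.

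The G1/S regulators were closer to CON. Ccne1, the E-type cyclin of S phase entry, read 27.2 in DSSPAR, 56.2 in DSS and 27.0 in CON, so that DSS alone stood above the floor by more than 2-fold. Ccnd1, the cyclin that relays growth signals, was 1.52-fold higher in DSS than in CON, and Ccne2 1.38-fold. E2f1 lay above the floor in DSS alone, at 30.3. Among 27 further regulators measured, which act as brakes or switches of the cycle, 2 passed 2-fold upward and 2 downward, with a median of 0.03. E2f2 was at least 3.36-fold higher in DSS than in CON and the repressor gene E2f8 2.18-fold. Mycn was 2.98-fold lower and Cdk6, a partner kinase of D-type cyclins, 2.01-fold lower. The further genes of both phases with the largest ratios were Asf1b, a histone chaperone (2.87-fold), the origin kinase gene Cdc7 (2.54-fold), Dtl, a receptor of a ubiquitin ligase that acts in S phase (2.31-fold), and Tipin, which protects forks (2.30-fold), for replication. For mitosis they were Cep55, an abscission gene (3.04-fold), Sgo1, a guardian of cohesion (2.96-fold), Cdca3 (2.93-fold) and the checkpoint kinase gene Ttk (2.82-fold).

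Markers of several cell types also differed in colon. Of 6 leukocyte markers 6 were at least 2-fold higher in DSS than in CON, with summed intensities of 2842 in DSSPAR, 2857 in DSS and 938 in CON. Of 6 macrophage markers 5 were at least 2-fold higher, with sums of 3769 in DSSPAR, 3702 in DSS and 1190 in CON. Of 6 fibroblast markers 2 were at least 2-fold higher, with sums of 7944 in DSSPAR, 10552 in DSS and 5493 in CON. The epithelium markers summed to 32772 in DSSPAR, 30840 in DSS and 30838 in CON, and of these 8 genes only Cdx2 was 2-fold lower in DSS. The crypt stem cell markers summed to 239 in DSSPAR, 297 in DSS and 450 in CON, lower in DSS than in CON, and Lgr5 was 2.90-fold lower in DSS than in CON. The part of any of these cell types in the cell cycle values was not tested.

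In the colon of DSSPAR mice the readings of the cell cycle genes sat slightly under those of DSS mice, in both sets. For DSSPAR against DSS the median log2 ratio was -0.32 for mitosis and -0.30 for replication genes, and -0.01 for all 11730 genes measured. Of 53 genes, 50 lay below 0, beside 51.7% of all genes. By the brightest probe sets only Ccne1 was at least 2-fold lower (2.07-fold) and 0 were at least 2-fold higher. The shares over all genes were 1.24% and 0.392%. The other probe set of Ccne1 gave a log2 ratio of -0.60. Weaker probe sets passed 2-fold downward for Rrm2 (-1.25 and -1.26), Ccnd1 (-1.34) and Tpx2 (-1.16). For single genes, the robust SD between 2 probe sets was 0.36 here. Of 31 genes with several probe sets, 29 had them all on 1 side of 0, beside 51.9% of all genes.

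The genes furthest below DSS came from both sets. Uhrf1 read 91.7 in DSSPAR, 179 in DSS and 124 in CON, 1.95-fold lower in DSSPAR than in DSS. Cenpe read 77.1 in DSSPAR, 142 in DSS and 63.4 in CON. Ndc80 read 45.7 in DSSPAR, 82.0 in DSS and 27.8 in CON. The last 2 genes, 1.85-fold and 1.79-fold lower in DSSPAR than in DSS, sat between DSS and CON, whereas Uhrf1 was also lower in DSSPAR than in CON. Ube2c (1.67-fold lower), Rrm2 (1.65-fold by its brightest probe set) and Plk1 (1.64-fold) followed. The genes at 0 or above were Cks2 (0.25), Stmn1 (0.08) and Cdc6 (0.04). Mitosis minus replication was -0.02, and between -0.02 and 0.06 under the alternatives tried. Further mitosis genes had a median of -0.31 and further replication genes -0.24, with 0 of 48 and 0 of 44 past 2-fold. Several marker lists were lower in DSSPAR than in DSS as well. The median was -0.40 for fibroblast markers (6 of 6 below 0), -0.45 for endothelium markers (4 of 5), -0.37 for squamous epithelium markers (5 of 5) and -0.27 for crypt stem cell markers (4 of 4). It was -0.14 for leukocyte markers (5 of 6), -0.10 for macrophage markers (3 of 6), 0.10 for epithelium markers (2 of 8) and 0.10 for B and T cell markers (2 of 4). Their part in the cell cycle values was not tested.

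**Figure D3:**
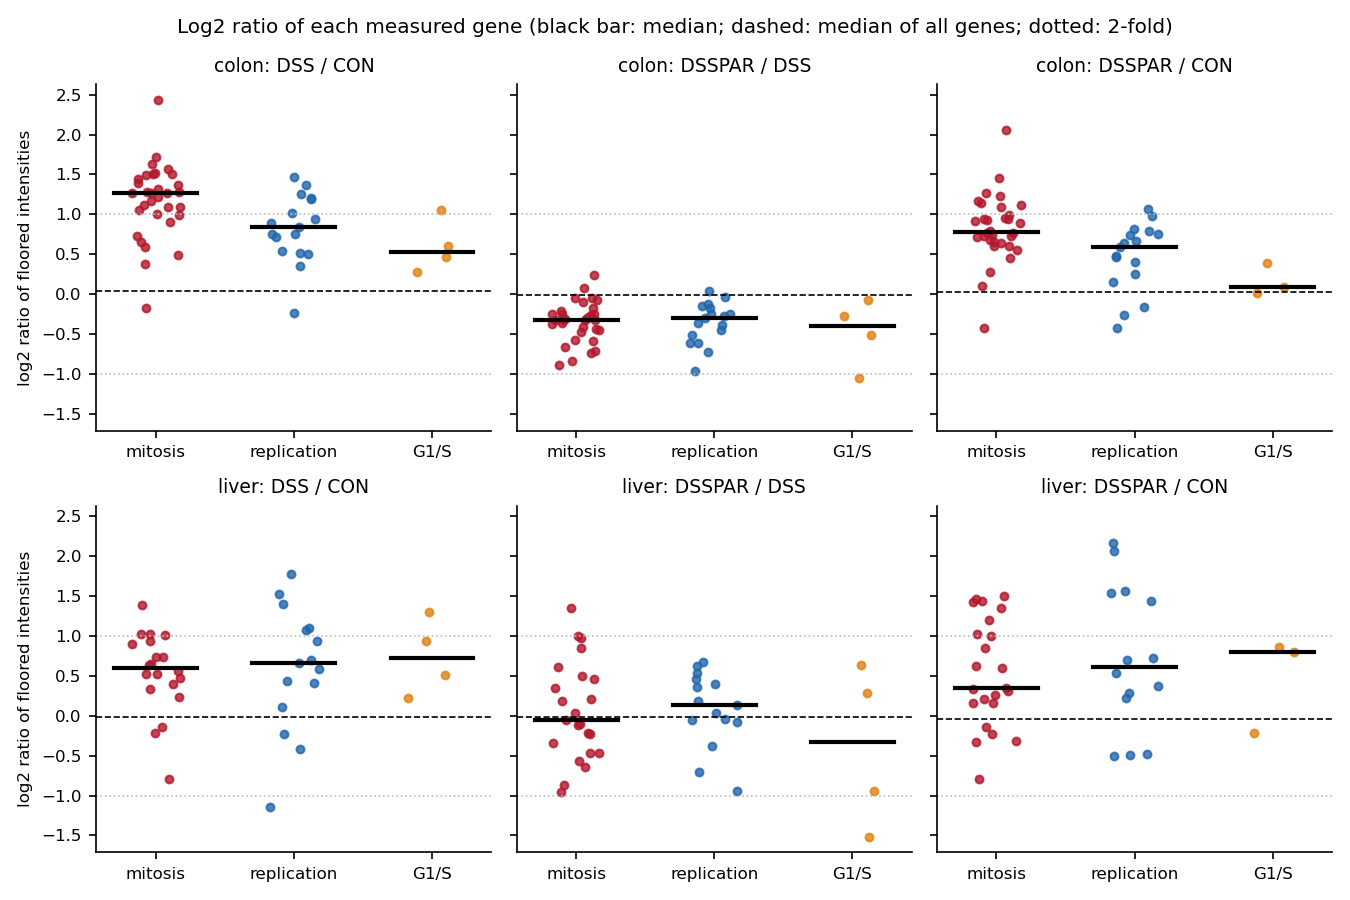
Log2 ratio of each measured gene, by set, for the 3 comparisons in colon (top) and liver (bottom), with the set median as a bar, the median of all genes dashed and 2-fold dotted. In colon the mitosis median, 1.27, stands above the replication median, 0.84, for DSS against CON, and both sets lie near -0.3 for DSSPAR against DSS.

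Against CON, the colon of DSSPAR mice still had higher readings of most cell cycle genes. For DSSPAR against CON 9 of 52 measured genes passed 2-fold upward and 0 downward, beside 3.51% and 2.1% of all 11808 genes. The medians were 0.78 for mitosis and 0.59 for replication genes, beside 0.03 for all genes. The 8 mitosis genes past 2-fold were Birc5 (4.16-fold), Cdk1 (2.75-fold), Kif20a (2.41-fold), Hmmr (2.34-fold), Melk (2.25-fold), Ccna2 (2.21-fold), Ccnb2 (2.17-fold) and Cdc20 (2.13-fold). The replication gene was Gins1 (2.09-fold). Of 27 genes with several probe sets 18 had them all on 1 side of 0 (66.7%), beside 56.9% of all genes, and Mcm2, Mcm3, Mcm5, Cdc45 and Rrm1 were among the 9 that did not. Mitosis minus replication was 0.20. The count depended on the scaling, since 28 genes passed when arrays were centred on their medians and 14 after quantile normalization, beside 890 and 482 of 11862 genes measured under the same scalings. This comparison and the comparisons above share arrays, so their values are not independent.

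The arrays had unlike medians, so the scaling bears on all these ratios. With each array centred on its own median, the median of all colon genes was 0.12 when DSS was set against CON, 0.18 when DSSPAR was set against DSS and 0.30 when DSSPAR was set against CON. The median of the cell cycle genes lay at a distance of 1.05, -0.30 and 0.71 from these, and at 1.05, -0.31 and 0.70 with the deposited scaling. For DSSPAR against DSS the genes' own median was -0.12 with that centring. Among all genes past 2-fold, the share that was higher in DSSPAR than in DSS was 24.0% with the deposited scaling, 57.8% with median centring and 41.8% with quantile normalization. For DSSPAR against CON it was 62.6% with the deposited scaling and 88.0% with median centring.

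In liver these genes stood nearer the limit of the measurement. By the brightest probe set of each, 38 of 53 genes lay above the floor in DSSPAR, 36 in DSS and 31 in CON. The count for replication genes was 14 in each array, whereas for mitosis genes it was 21 in DSSPAR, 18 in DSS and 14 in CON. Over all probe sets the share above the floor was 47.3% in DSSPAR, 50.0% in DSS and 52.7% in CON. Cdc6, Tyms, Plk1, Aurkb, Bub1, Cenpe, Ndc80 and Kif20a lay under the floor in all 3 liver arrays on every probe set. Bub1b did so on its brightest probe set, but another read 173 in DSS. A gene that entered a comparison only because 1 array was high had to differ, so medians without the floor over all 53 genes are given beside the counts.

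For DSS against CON in liver 10 of 39 measured genes passed 2-fold upward and 1 downward, beside 4.73% and 4.2% of all 13034 genes. Without the floor the median over all 53 genes was 0.63 and 41 lay above 0, and over all 18194 genes the median was -0.06. The largest ratios of the replication set were those of helicase genes. Mcm2 to Mcm7 had log2 ratios of 0.93 (Mcm2), 1.40 (Mcm3), 1.07 (Mcm4), 1.77 (Mcm5), 1.52 (Mcm6) and 0.41 (Mcm7), so 4 of 6 passed 2-fold, against 0 of 6 in colon.

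For DSSPAR against CON in liver 12 of 40 measured genes passed 2-fold upward and 0 downward, beside 3.26% and 3.45% of all 12721 genes. Without the floor the median over all 53 genes was 0.69, and over all 18194 genes -0.10. Of Mcm2 to Mcm7, 5 of 6 passed. Mcm5 read 698 in DSSPAR, 532 in DSS and 155 in CON, 4.49-fold higher in DSSPAR than in CON. Mcm6 read 647 in DSSPAR, 446 in DSS and 155 in CON, 4.17-fold higher. Both genes were high in both groups given the polymer, and highest in DSSPAR. Mcm2 read 752 in DSSPAR, 488 in DSS and 255 in CON, Mcm3 read 323, 294 and 111 in the same arrays, and Mcm4 read 568, 441 and 210. These were 2.94-fold, 2.90-fold and 2.71-fold higher in DSSPAR than in CON. The brightest probe set of Mcm7 was close in the 3 arrays, at 890 in DSSPAR, 916 in DSS and 689 in CON. Another read 319 in DSSPAR, 439 in DSS and 212 in CON. Its log2 ratio was 1.05 for DSS against CON, and the remaining probe sets gave 0.32 and 0.26.

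Not every probe set of the helicase genes gave ratios of this size. A weaker probe set of Mcm5 read 184 in DSSPAR, 168 in DSS and 100 in CON, a log2 ratio of 0.88 for DSSPAR against CON. One of Mcm6 read 535 in DSSPAR, 203 in DSS and 91.9 in CON, the same order as the brightest. One of Mcm2 read 124 in DSSPAR, 165 in DSS and 18.6 in CON, and was thus highest in DSS. With CON under the floor, its log2 ratio for DSSPAR against CON was at least 0.36. For Mcm3 the only measured probe set whose identifier does not mark it as shared between transcripts read 88.4 in DSSPAR, 93.1 in DSS and 105 in CON. With DSSPAR and DSS under the floor, its log2 ratio was -0.12 for both against CON. For DSS against CON 16 of 21 cell cycle genes with several probe sets had them all on 1 side of 0 (76.2%, beside 50.2% of all such genes), and for DSSPAR against CON 13 of 21 (61.9%, beside 49.9%).

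The remainder of the replication set in liver was mixed. The brightest probe set of Rrm2 read 703 in DSSPAR, 915 in DSS and 427 in CON, 2.14-fold higher in DSS than in CON. Another, above the floor in all 3 arrays, read 380 in DSSPAR, 272 in DSS and 248 in CON. Its log2 ratio for DSS against CON was 0.13. Rrm1 was 1.58-fold higher in DSS than in CON and Gins1 1.50-fold, while Pcna was 1.08-fold higher. Tk1 was 1.33-fold lower in DSS than in CON. Dut read 487 in DSSPAR, 932 in DSS and 691 in CON, lowest in DSSPAR. The brightest probe set of Cdc45 read 132 in DSSPAR, 23.6 in DSS and 113 in CON, where only DSS lay under the floor, and Uhrf1 lay above it in DSS alone, at 157. Further replication genes had smaller ratios: 4 of 39 measured passed 2-fold upward and 2 downward for DSS against CON, with a median of 0.25. Fen1, the flap nuclease, was 2.52-fold lower and the primase gene Prim2 2.28-fold lower. Pola1, its polymerase partner, was 2.37-fold higher and Gins2 at least 2.06-fold higher. For DSSPAR against CON 3 of 42 passed 2-fold upward and 2 downward, with a median of 0.06.

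Mcm10 lay on opposite sides of CON in the tissues. In colon it read 67.3 in DSSPAR, 103 in DSS and 50.8 in CON, and in liver 2448 in DSSPAR, 1541 in DSS and 3405 in CON. DSS was thus the highest array in colon and the lowest in liver, with log2 ratios against CON of 1.02 and -1.14. A weaker liver probe set read 75.6 in DSSPAR, 135 in DSS and 162 in CON, with a log2 ratio of -0.26 for DSS against CON.

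Of the mitosis genes in liver, those measured in all 3 arrays included the core of mitotic entry. Cdk1 read 300.2 in DSSPAR, 292 in DSS and 112 in CON. Ccnb2 read 240 in DSSPAR, 212 in DSS and 105 in CON. Both were higher in the 2 groups given the polymer, Cdk1 by 2.69-fold in DSSPAR and 2.61-fold in DSS, and Ccnb2 by 2.29-fold and 2.03-fold. Mki67 read 267 in DSSPAR, 194 in DSS and 47.9 in CON, where CON lay under the floor, so it was at least 2.77-fold higher in DSSPAR and at least 2.01-fold higher in DSS. Stmn1 read 1603 in DSSPAR, 1136 in DSS and 594 in CON, 2.70-fold higher in DSSPAR than in CON. Ccna2 (2.03-fold) and Cdc20 (2.82-fold) also passed 2-fold for DSSPAR against CON. A weaker probe set of Cdc20 did not, with 158 in DSSPAR, 286 in DSS and 167 in CON. The brightest probe set of Foxm1 stood alone in DSSPAR, at 246, against 10.3 in DSS and 75.4 in CON, at least 2.55-fold above both. The other probe sets of Foxm1 lay under the floor in every liver array. Birc5, with 174 in DSSPAR, 91.7 in DSS and 12.1 in CON, was above the floor in DSSPAR alone. Cenpf, at 108 in DSSPAR, 197 in DSS and 39.4 in CON, passed 2-fold in DSS against CON alone (at least 2.04-fold).

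**Figure D4:**
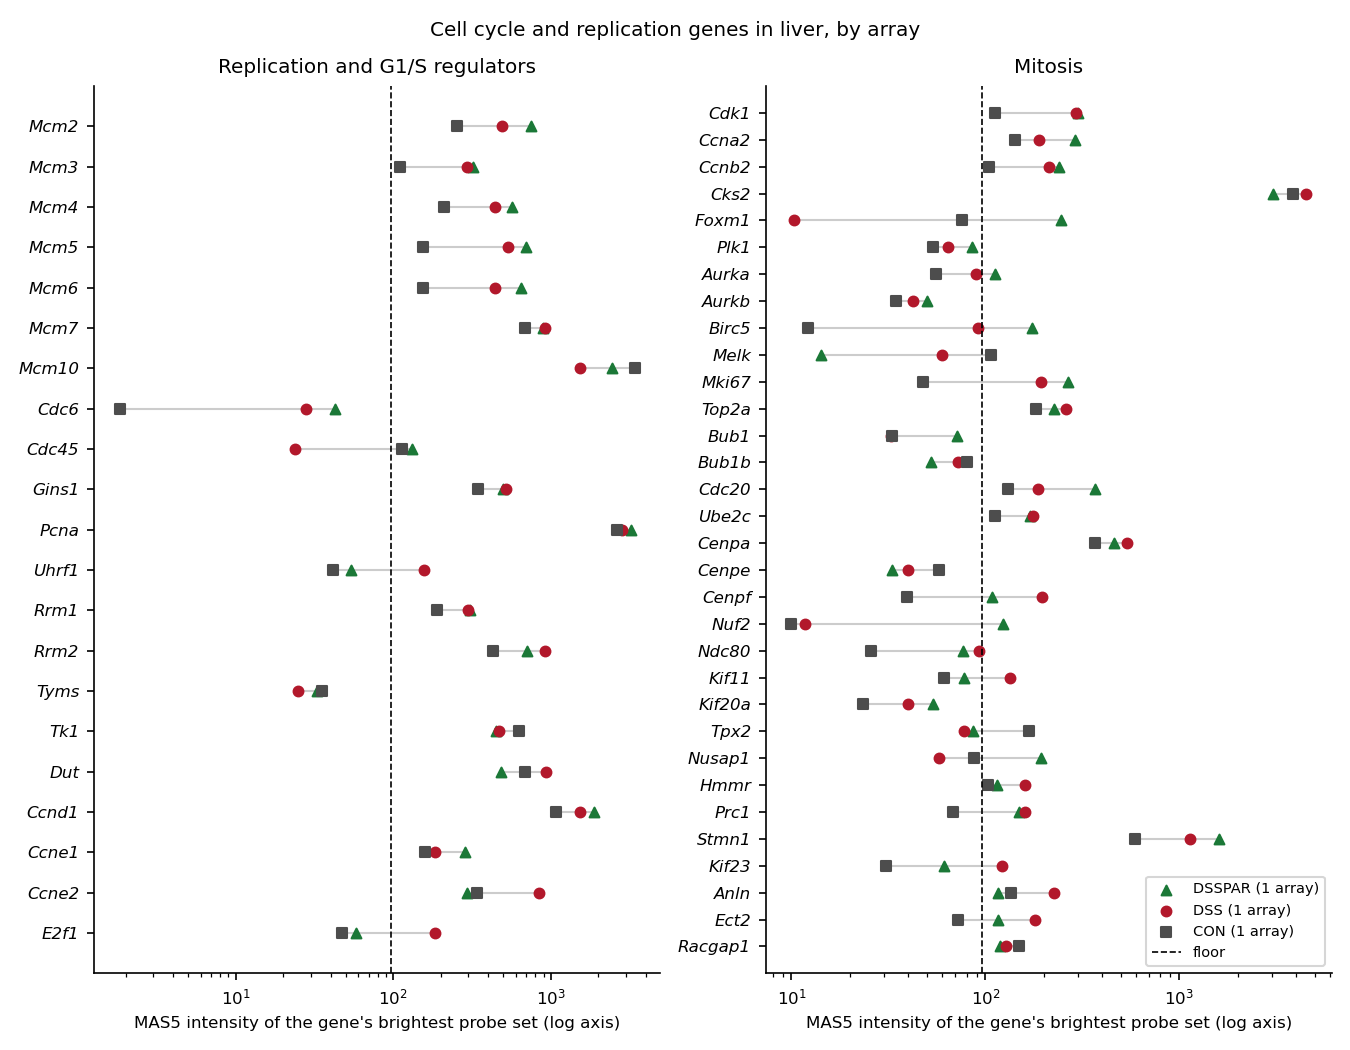
MAS5 intensity (log axis) of each gene's brightest probe set on the 3 liver arrays, replication and G1/S genes on the left and mitosis genes on the right, with the floor dashed. Mcm2 to Mcm6 lie well to the right of CON in DSSPAR and DSS, and 14 of 32 mitosis genes lie above the floor in CON.

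The set medians had no settled order in liver. Mitosis minus replication was -0.07 for DSS against CON and -0.26 for DSSPAR against CON with the floor, and without it -0.07 and 0.48. The sign for DSSPAR against CON thus depended on the floor. Between the further mitosis and further replication genes the same differences were 0.17 and 0.40 with the floor, and 0.21 and 0.19 without it. Further mitosis genes in liver had 8 of 37 at least 2-fold higher and 0 lower for DSS against CON, led by Pbk (3.43-fold), Cenpk (3.02-fold), the condensin gene Ncaph (2.83-fold) and Incenp (2.65-fold), the scaffold of the passenger complex. Among further regulators 4 of 25 were at least 2-fold higher, and Rbl1, a pocket protein gene (3.45-fold), E2f8 (2.79-fold) and Cdc25a, a phosphatase that activates Cdk2 (2.62-fold), were among them. Myc was 2.68-fold lower in DSS than in CON. Of the G1/S genes, Ccnd1 read 1879 in DSSPAR, 1537 in DSS and 1082 in CON, and Ccne1 read 287 in DSSPAR, 185 in DSS and 158 in CON. By these probe sets both had the order of the helicase genes but stayed under 2-fold, 1.74-fold and 1.82-fold higher in DSSPAR than in CON. Another probe set of Ccnd1 was highest in DSS, with 1793 in DSSPAR, 2123 in DSS and 716 in CON. It passed 2-fold, at log2 ratios of 1.57 for DSS against CON and 1.33 for DSSPAR against CON. A further one gave 0.72 and 0.80. The brightest probe set of E2f1 was above the floor in DSS alone, at 185, and another in DSSPAR alone, at 109.

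For DSSPAR against DSS in liver the cell cycle genes lay on both sides of 0. Of 42 measured genes 1, Foxm1, was at least 2-fold higher and 1, Ccne2, at least 2-fold lower, beside 2.8% and 4.23% of all 12398 genes. Ccne2 read 293 in DSSPAR, 838 in DSS and 341 in CON, high in DSS alone and 2.86-fold lower in DSSPAR than in DSS. The median was 0.04 with 22 genes above and 20 below 0, against 50 of 53 below 0 in colon. Without the floor the median over all 53 genes was 0.13, with 29 above and 24 below 0. Of Mcm2 to Mcm7 5 of 6 lay above 0 (median 0.38), and of the 4 cytokinesis genes 4 lay below 0 (median -0.49), among them Anln, which read 116 in DSSPAR, 225 in DSS and 136 in CON. Of 21 genes with several probe sets 11 had them all on 1 side of 0 (52.4%), beside 50.7% of all genes. Mcm2, Mcm3 and Mcm7 were among those that did not, and for Mcm2 the other measured probe set gave -0.41 against 0.62 for the brightest.

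Median centring also shifted the liver comparisons, with a median of all genes of 0.12 when DSS was set against CON, 0.13 when DSSPAR was set against DSS and 0.25 when DSSPAR was set against CON. The cell cycle genes then lay 0.61, 0.07 and 0.58 above it, and 0.65, 0.05 and 0.60 above it with the deposited scaling. The share of higher genes among all genes past 2-fold was 71.0%, 67.0% and 84.3% with that centring in these comparisons, and 52.9%, 39.8% and 48.6% with the deposited scaling.

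Leukocyte markers in liver summed to 8235 in DSSPAR, 8929 in DSS and 5284 in CON, with 2 of 6 at least 2-fold higher in DSS than in CON. Macrophage markers summed to 21620 in DSSPAR, 21185 in DSS and 12622 in CON, again with 2 of 6. Hepatocyte markers summed to 275056 in DSSPAR, 444551 in DSS and 347755 in CON. The part of these cells in the liver values was not tested.

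Set side by side, 39 of the 53 genes were measured for DSS against CON in both tissues. Cdk1 and Ccnb2 passed 2-fold in both, at 3.29-fold and 2.71-fold in colon and 2.61-fold and 2.03-fold in liver, as did Mki67 and Rrm2. For Rrm2 in liver this held for the brightest probe set, while another gave a log2 ratio of 0.13. By their brightest probe sets, Mcm3, Mcm4, Mcm5 and Mcm6 passed in liver and not in colon. Other liver probe sets passed for Mcm4 (1.66) and Mcm6 (at least 1.07). For Mcm5 another, above the floor in every liver array, gave 0.75. For Mcm3 others gave -0.12, with DSS under the floor, and at least 0.998, with CON under it. The kinetochore genes Ndc80 and Cenpe and the spindle gene Kif20a passed in colon and lay under the floor in every liver array. Whether any gene's ratio differs between the tissues could not be tested with 1 array per group.

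**Figure D5:**
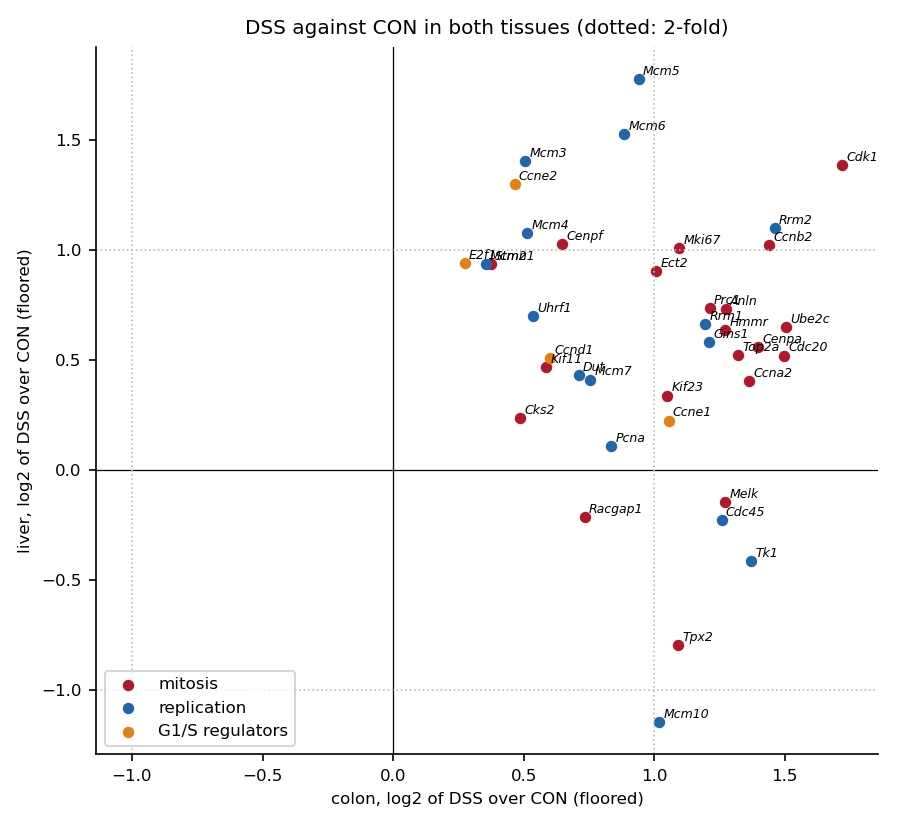
Log2 ratio of DSS over CON in colon (horizontal) and liver (vertical) for the 39 genes measured in both tissues, coloured by set, with 2-fold dotted. Each gene is shown by its brightest probe set. Cdk1, Ccnb2, Mki67 and Rrm2 lie past 2-fold on both axes, Mcm3 to Mcm6 past it on the liver axis, and Mcm10 lies past it upward in colon and downward in liver.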

How the data were processed

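Colon and liver RNA of DSSPAR, DSS and CON mice was measured on 6 arrays, 1 array of pooled RNA per group and tissue, grouped by the labels. The deposited values are MAS5 intensities, 1 per probe set, per the submitters' processing notes. The software's version is not given in the sources used here, nor is the target of its scaling. 0 value columns were left unused. Of 45101 probe sets, 34958 had 1 gene symbol in the platform annotation, 932 had several and 9211 were not listed. Only those with 1 symbol were used. The Entrez identifiers of 34754 were found in the gene table, and 0 symbols needed an update.

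A gene was represented by its probe set with the highest mean log2 value in that tissue. Intensities under the floor, the tissue's median, were raised to it and log2 ratios were computed from the deposited intensities within each tissue. With 1 array per group no test was possible. A call is a ratio of at least 2-fold, and a median stands beside that of all genes measured. Precision is limited by the number of arrays. The genes, the further lists and the motifs were chosen with earlier results of these data known. Every one of the 54 genes could be named. Of each further list, the 4 genes with the largest absolute log2 ratio for DSS against CON in a tissue were named. Promoter sequences are those of RefSeq on GRCm38.p6, matched by symbol.

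Alternatives for the floor were the 75th percentile and none. Scaling was changed by median centring and by quantile normalization per tissue. Probe sets of a gene were averaged, or those of shared type were left out, and the threshold was set at 3-fold. A filter on the mean intensity and centring on probe sets above the floor were added after seeing the data. The procedure was tested on simulated data. Python 3.11.15, NumPy 2.4.6, pandas 2.3.3 and matplotlib 3.10.9 were used.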

Additional observations from a re-analysis of the deposited data

Results flagged for a closer look

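Mcm10, which helps to activate the replicative helicase, lay on opposite sides of CON in the DSS arrays of the tissues. Its log2 ratio of DSS over CON was 1.02 in colon and -1.14 in liver, each from 1 array per group. The difference between the tissues was not tested. With the mean over the probe sets of each gene, 0 of 27 measured cell cycle genes, Mcm10 included, were at least 2-fold lower for DSS against CON in liver. The share over all genes was 4.79%.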

How the results depend on the processing

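No paired analysis was possible because each group had 1 array per tissue. Of 252 summary values recomputed under the alternatives, 210 stayed within the limits set and 42 did not. The sign was the other one in 21, of which 18 stayed within those limits. They belong to 6 results: mitosis minus replication in every comparison but DSSPAR against CON in colon, and the mitosis median for DSSPAR against DSS in liver, which ranged between -0.22 and 0.18. With the floor at the 75th percentile, the difference of mitosis minus replication for DSS against CON in colon was -0.0084, and the mitosis median was 0.79. In colon 13 of 44 measured genes then were at least 2-fold higher for DSS against CON, beside 3.68% of all genes. For DSSPAR against CON it was 5 of 36, beside 2.85%. Liver had 2 of 16 for DSS against CON, 2 of 15 for DSSPAR against CON and 0 of 16 for DSSPAR against DSS. The shares over all genes were 3.71%, 2.36% and 2.02%. Ccne1 was no longer 2-fold lower for DSSPAR against DSS in colon under that floor, both centrings, quantile normalization and the 3-fold threshold. The count of lower genes was 0 there, and 2 of 46 with the mean over probe sets, beside 1.59% of all genes. In colon 28 of 52 genes were higher for DSSPAR against CON with arrays centred on their medians, beside 7.5% of all genes. With quantile normalization this count was 14 of 52, beside 4.06%. With centring on probe sets above the floor it was 16 of 52, beside 4.25%. The deposited scaling gave 9 of 52, beside 3.51%. With the mean over probe sets 20 of 46 genes were higher for DSS against CON in colon, beside 4.51% of all genes. The replication median for DSSPAR against CON there was 0.15. At 3-fold, the colon count of higher genes was 3 of 53 for DSS against CON and 1 of 52 for DSSPAR against CON. The shares over all genes were 1.76% and 1.06%. The liver count was 1 of 39 and 2 of 40 in these comparisons, beside 1.07% and 0.668%. It was 0 of 42 in either direction for DSSPAR against DSS, beside 0.282% higher and 0.548% lower.

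Without a floor, liver had 19 genes higher and 4 lower when DSS was set against CON, beside 11.4% and 15.1% of all genes. It had 5 higher and 4 lower for DSSPAR against DSS, beside 10.6% and 14.5%. For DSSPAR against CON it had 23 higher and 1 lower, beside 8.74% and 16.4%, and the mitosis median was 1.00 and mitosis minus replication 0.48, or 0.33 with the mean over probe sets. The 1 gene lower for DSS against CON in liver became 0 with arrays centred on their medians, the mean over probe sets, no probe sets of shared type and the 3-fold threshold. With the filter on the mean intensity it became 2 of 33, beside 5.27% of all genes. For DSSPAR against DSS in liver the higher count was 4 of 42 with arrays centred on their medians, beside 5.34% of all genes. It was 2 of 42 with quantile normalization, beside 2.77%, and 2 of 31 with the mean over probe sets, beside 3.34%. Without probe sets of shared type 7 of 33 genes were higher for DSSPAR against CON in liver, beside 3.35% of all genes. Mcm3 then turned to -0.12 for both groups against CON, and Cdc20 to -0.0862 for DSSPAR against CON. Of 1976 values of single genes, 1848 stayed within the limits, 125 moved and these 3 turned. The cause of these changes was not tested, apart from the floor cutting ratios short by its construction.

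Precision is limited by 1 array per group, and the spread between pools is unknown. In liver 31 of 53 genes lay above the floor in CON. A ratio with 1 array of the comparison at or under the floor is a bound, and a gene with both there has no ratio. Diet and exposure time differ together between DSSPAR and DSS.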

Other observations

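Tyms, the thymidylate synthase gene, was also read by a probe set annotated to both Tyms and its pseudogene Tyms-ps, which was left out of the counts. In colon this probe set read 221 in DSSPAR, 266 in DSS and 145 in CON, a log2 ratio of 0.88 for DSS against CON, 0.61 for DSSPAR against CON and -0.27 for DSSPAR against DSS. In liver it read 500 in DSSPAR, 768 in DSS and 754 in CON, with a log2 ratio of 0.03 for DSS against CON. The order of the colon arrays is that of Rrm2 and Tk1 and not that of the brightest probe set annotated to Tyms alone. The other probe sets annotated to Tyms alone lay under the floor in every colon array.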
